A study of Mus musculus with 22 samples.

Results

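The genes described here are 8 phosphatases and feedback inhibitors of mitogen-activated protein kinase (MAPK) signalling: Ptpn6, Ptpn11, Dusp4, Dusp6, Spry1, Spry2, Spry4 and Spred1. A probe was taken where its gene name in the scanner files was one of these symbols or an older synonym, which gave 17 of 41174 probes and 8 of 21086 named genes. Ptpn6 stood in the files under its older name Hcph. RNA of whole brain from mice labelled AGTR2 knockout and from control mice was measured on 22 Agilent 2-colour arrays, each holding 1 knockout and 1 control animal. The groups compared were 4 knockout animals at postnatal day 1 (P1), 8 knockout animals at embryonic day 15 (E15), 4 control animals at P1 and 6 control animals at E15. The series' design text calls the replicates biological, and the strain, the sex, the design of the knockout allele and any shared litters are not given in the sources used here. The 6 E15 controls served 8 knockout replicates, so some replicates shared a control animal. The P1 control labels carry no number, so each P1 control was taken as 1 animal by the knockout on its 2 arrays.

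The angiotensin II type 2 receptor, encoded by Agtr2, is known to oppose growth signalling, and the tyrosine phosphatase SHP-1 (Ptpn6) and MAPK phosphatases have been described as its effectors. Growth factor receptors activate Ras, the kinases Raf and MEK, and then the MAP kinases of the ERK group; dual-specificity phosphatases such as DUSP4 and DUSP6 remove the activating phosphates from ERK. Sprouty and Spred proteins act further up, between the receptor and Raf, and their genes are themselves induced by the pathway, which makes them feedback inhibitors. SHP-2 (Ptpn11) is the exception among these genes, because it carries the signal from receptors to Ras.

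RefSeq promoters of assembly GRCm38.p6, each running from 250 bases before to 50 bases after the gene's start, held an entry for 6 of the 8 genes. The promoters of Dusp6, Spry2 and Spred1 are shown because these genes differed between the ages in control brain and no detected probe of theirs went significantly the other way. They lie at chr10:99262981-99263280 on the plus strand, chr14:105896770-105897069 on the minus strand and chr2:117120821-117121120 on the plus strand. Each is written 5′ to 3′ on the strand of the gene, and capitals mark matches to the motifs searched.
Dusp6 promoter: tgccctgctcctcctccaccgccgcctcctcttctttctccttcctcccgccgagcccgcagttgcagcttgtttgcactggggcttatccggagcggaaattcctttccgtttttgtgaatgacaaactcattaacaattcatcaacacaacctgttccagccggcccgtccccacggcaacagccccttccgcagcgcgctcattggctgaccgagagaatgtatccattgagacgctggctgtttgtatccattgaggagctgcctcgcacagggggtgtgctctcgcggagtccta
Spry2 promoter: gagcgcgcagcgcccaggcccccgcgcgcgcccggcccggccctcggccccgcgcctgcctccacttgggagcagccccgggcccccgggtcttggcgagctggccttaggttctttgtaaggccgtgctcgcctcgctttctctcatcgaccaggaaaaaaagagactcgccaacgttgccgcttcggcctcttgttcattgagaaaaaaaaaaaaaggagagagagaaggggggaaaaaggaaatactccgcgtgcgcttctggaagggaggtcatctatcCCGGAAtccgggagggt
Spred1 promoter: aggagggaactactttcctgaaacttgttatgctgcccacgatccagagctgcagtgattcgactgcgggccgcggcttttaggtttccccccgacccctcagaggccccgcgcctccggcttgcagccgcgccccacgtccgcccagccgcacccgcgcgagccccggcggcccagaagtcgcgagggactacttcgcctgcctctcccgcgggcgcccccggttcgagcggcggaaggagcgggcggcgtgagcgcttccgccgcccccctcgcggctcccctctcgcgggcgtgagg
The motifs searched on both strands were the ETS site CCGGAA, the AP-1 site TGANTCA, the cyclic AMP response element TGACGTCA and the CArG box. Shorter or other forms of the ETS site were not searched. CCGGAA stood in the Spry2 promoter at base 34 after the start, and none of the 4 motifs as searched stood in these windows of Dusp6 and Spred1. Ptpn11 held CCGGAA 103 bases before its start and a cyclic AMP response element 67 bases before it, and the windows of Ptpn6 and Spry1 held no match. Among all 32851 promoters of this length, 14.9% held CCGGAA, 7.8% the AP-1 site, 1.8% the cyclic AMP response element and 1.6% the CArG box. Guanine and cytosine made up 57.3% of the Dusp6 window, 62.7% of the Spry2 window and 72.3% of the Spred1 window, against a median of 52.7% over all promoters.

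The labels could not be checked through the targeted gene. The log2 ratio of Agtr2 in knockout over control ran from -0.13 to 0.29 in the 4 P1 replicates and from -2.10 to 0.87 in the 8 E15 replicates, with 3 of 4 and 2 of 8 values above 0. The fitted changes were 0.11 (SE 0.08, limma adjusted p = 0.723) at P1 and -0.39 (SE 0.31, limma adjusted p = 0.796) at E15, and whether its 1 probe lies in the deleted part is not known, so "knockout" stands below for animals labelled so. The log2 level of Agtr2 was 6.07 to 6.24 in P1 controls, near the floor of 5.64 set by the processing, so a loss could hardly show. At E15 it ran from 6.17 over a median of 6.52 to 9.19 in controls, and from 6.22 over a median of 6.61 to 7.09 in knockouts. Spots well above background made up 71.3% to 89.5% of the P1 arrays and 74.9% to 89.3% of the E15 arrays. Spots marked as outliers, which were left out, numbered 287 to 3343 on a P1 array and 52 to 381 on an E15 array. Whole-brain samples differed in adjoining tissue at E15: the summed level of 10 meningeal and fibroblast markers was 56170 units in knockout 8, 55117 in control 1 and 22370 in control 2, and at most 9738.2 in every other E15 animal. At P1 it lay between 3299.3 and 4308.5 units in knockouts and between 3206.4 and 4342.3 in controls. The summed level of 7 forebrain markers ran from 1008.2 to 9123.9 units in P1 knockouts and from 1439 to 3710.7 in P1 controls. At E15 this forebrain sum ran from 1731.3 to 11730 units in knockouts and from 1259.3 to 8155 in controls. In bulk tissue, fewer cells of a type and less RNA per cell cannot be told apart. All P1 arrays were scanned on 1 day and the E15 arrays on 3 other days, so age and scan batch cannot be told apart.

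Between the ages, Dusp4, Spry2 and Dusp6 were lower at P1 than at E15 in control brain and Spred1 was higher, while Spry1, Spry4 and the brightest Ptpn11 probe did not pass the test. The brightest Ptpn6 probe was lower, but the 3 probes of that gene disagreed. These are log2 levels of the control channel, per animal, tested with limma and Benjamini-Hochberg adjustment over 25407 features at a threshold of 0.05. Read by their brightest probes, the members gave 5 calls of 8 (1 higher, 4 lower, Ptpn6 among the lower), beside 37.6% of all features (14.8% higher, 22.8% lower). Their median change was -0.42, beside -0.08 over all features. With each channel scaled to its 75th percentile in place of the quantile method, 61.1% of all calls were higher and the median of all features was 0.09, so for Dusp4, Spry2, Dusp6 and Spred1 the change in controls is also given less the median of all features. In knockout brain, read on the same arrays and therefore no independent comparison, 4 of 8 members were called (1 higher, 3 lower) beside 28.2% of all features (12.7% higher, 15.6% lower). On the probes that read the genes, P1 and E15 animals did not overlap in 5 of 8 members in controls (1 above, 4 below), beside 29.1% of features (11.9% above, 17.2% below), and in 1 of 8 in knockouts (below), beside 18.5% (9.41% above, 9.12% below).

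**Figure D1:**
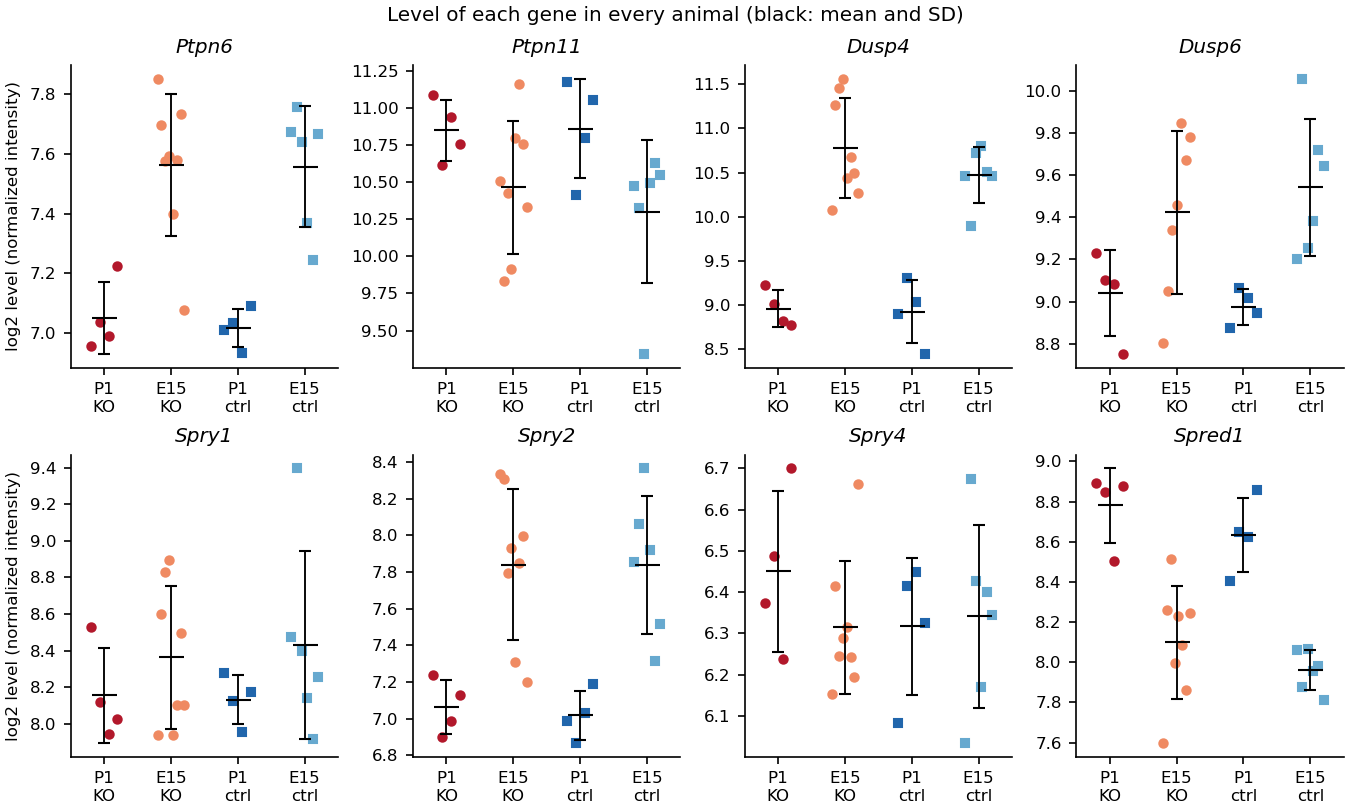
Log2 level of each of the 8 genes in every animal, in 4 P1 knockouts, 8 E15 knockouts, 4 P1 controls and 6 E15 controls (Dusp6 has 7 E15 knockout values), with the mean and SD in black. Each vertical axis has its own range. Dusp4 separates the ages in both genotypes, and Dusp6, Spry2 and the brightest Ptpn6 probe lie lower and Spred1 higher in every P1 control than in every E15 control.

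Dusp4, a nuclear phosphatase that inactivates ERK, had the largest change among the 8 genes. Its level in the P1 controls was 8.90, 9.30, 9.04 and 8.45, and in the 6 E15 controls it ran from 9.90 over a median of 10.48 to 10.80. Every P1 control lay below every E15 control. The mean fell by 1.55 on the log2 scale (change -1.55, SE 0.19, n = 4 and 6, limma adjusted p = 0.000174), a level 2.93-fold lower at P1, or -1.48 less the median of all features. The knockouts gave 9.23, 9.02, 8.81 and 8.77 at P1, against 10.07 to 11.56 with a median of 10.59 at E15. These groups did not overlap either, with a change of -1.82 (SE 0.27, n = 4 and 8, limma adjusted p = 0.000444). A second, dimmer Dusp4 probe (mean log2 intensity 7.00, against 10.02 for the first), lying at chr8:33618060-33618119 against chr8:33620821-33620880 for the first, gave -0.35 (SE 0.10, adjusted p = 0.0241) in knockouts and -0.12 (SE 0.09, adjusted p = 0.285) in controls. The mean over both probes changed by -0.84 in controls and -1.09 in knockouts and passed the test in both. Probe positions here are those of the array's design, whose genome build is not given in the sources used here.

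Spry2, a Sprouty protein induced by fibroblast growth factor signalling, was lower at P1 on both of its probes. The brighter probe read 6.99, 6.87, 7.03 and 7.19 in the P1 controls, against 7.32 to 8.37 with a median of 7.89 in the E15 controls. No P1 control reached the lowest E15 control, and the change was -0.82 (SE 0.18, n = 4 and 6, limma adjusted p = 0.00482) or -0.74 less the median of all features. The other probe also separated the control groups, with a change of -0.47 (SE 0.14, limma adjusted p = 0.0267). In knockouts the changes of the 2 probes were -0.78 (SE 0.20, adjusted p = 0.0124) and -0.47 (SE 0.14, adjusted p = 0.0227), with groups that overlapped on both.

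Dusp6, a cytoplasmic phosphatase specific for ERK and read by 1 probe, had levels of 8.87, 9.07, 9.02 and 8.95 in the P1 controls, against 9.20 to 10.06 with a median of 9.51 in the E15 controls. All P1 controls lay below all E15 controls. The change was -0.57 (SE 0.15, n = 4 and 6, limma adjusted p = 0.0146), or -0.49 less the median of all features. In knockouts the groups overlapped and the change of -0.38 (SE 0.19, n = 4 and 7, limma adjusted p = 0.166) did not pass the test. E15 knockout 3 gave no value because its spot was marked as an outlier, and without E15 knockout 1 the change of -0.48 passed (limma adjusted p = 0.046).

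Spred1, a membrane-bound inhibitor of Ras and Raf that acts through neurofibromin, was higher at P1. Its brightest probe read 8.41, 8.65, 8.62 and 8.86 in the P1 controls, against 7.81 to 8.06 with a median of 7.97 in the E15 controls. All P1 controls lay above all E15 controls, with a change of 0.67 (SE 0.09, n = 4 and 6, limma adjusted p = 0.000296) or 0.75 less the median of all features. Knockouts read 8.89, 8.85, 8.50 and 8.88 at P1, against 7.60 to 8.51 with a median of 8.16 at E15, and changed by 0.68 (SE 0.15, n = 4 and 8, adjusted p = 0.0049). The other 2 Spred1 probes were dim, at mean log2 intensities of 6.26 and 5.97 beside 8.26, and changed by 0.04 and -0.05 in controls with neither passing the test. The mean over the 3 probes changed by 0.22 in controls and passed (adjusted p = 0.0082), and by 0.20 in knockouts, where it did not. An offset of 50 units, added to every signal before logs are taken, sets a floor near 5.64 and narrows the range of such dim probes. Its part in the difference between the Spred1 probes was not tested.

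**Figure D2:**
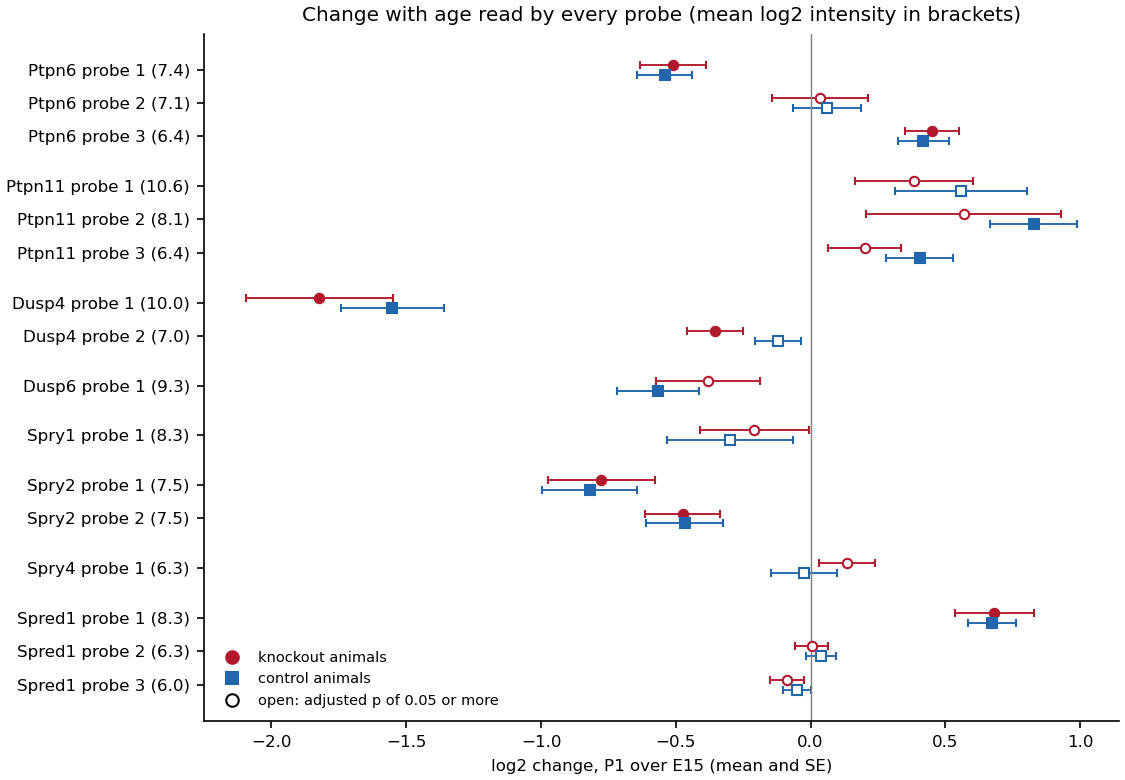
Change from E15 to P1 (log2 P1 over E15, mean and SE) for every probe of the 8 genes that was well above background at either age, in knockout animals (circles) and control animals (squares). Filled marks passed an adjusted p of 0.05; the number in brackets is the probe's mean log2 intensity. Ptpn6 probes 1 and 3 have opposite directions, and the dim probes of Spred1 lie near 0.

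Ptpn6, the phosphatase SHP-1, best known from blood cells and microglia, was read by 3 probes that disagreed. The brightest, at chr6:125388364-125388423, gave 7.01, 7.03, 6.93 and 7.09 in the P1 controls, against 7.24 to 7.76 with a median of 7.65 in the E15 controls. The groups were separate and the change was -0.54 (SE 0.10, n = 4 and 6, limma adjusted p = 0.00241). The dimmest, at chr6:125376479-125376538, changed the opposite way by 0.42 (SE 0.09, limma adjusted p = 0.00555), and the third by 0.06 (SE 0.13, adjusted p = 0.731). The mean over the 3 probes changed by -0.02 (adjusted p = 0.864), so no direction is given for Ptpn6 as a gene. The same held in knockouts, where the 3 probes changed by -0.51 (adjusted p = 0.00906), 0.45 (adjusted p = 0.00564) and 0.04 (adjusted p = 0.9). The summed level of 12 microglial and leukocyte markers overlapped between the ages, at 1495.1 to 1720.7 units in P1 controls and 1486.7 to 1891.5 in E15 controls. In controls 5 of these 12 markers were called (4 higher, 1 lower), beside 37.6% of all features (14.8% higher, 22.8% lower). Of the 12, 8 had a change above 0, and their median change was 0.08 beside -0.08 over all features.

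Ptpn11, the phosphatase SHP-2, gave positive changes on all 3 probes. Its brightest probe did not pass the test in controls (change 0.56, SE 0.24, limma adjusted p = 0.0961), with P1 levels of 10.4 to 11.2 beside E15 levels of 9.34 to 10.6. The others did, with changes of 0.83 (SE 0.16, adjusted p = 0.00275) and 0.41 (SE 0.12, adjusted p = 0.0259), and the mean over the 3 probes changed by 0.60 (adjusted p = 0.00407). In knockouts no single probe passed (changes 0.38, 0.57 and 0.20), while their mean of 0.38 did (adjusted p = 0.0222). With 75th percentile scaling the brightest probe changed by 0.29 in controls (adjusted p = 0.431), and without E15 control 2 by 0.37.

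Spry1 and Spry4, the remaining Sprouty genes, did not pass the test at either genotype. Spry1 changed by -0.30 (SE 0.24, 95% interval -0.82 to 0.22) in controls, or by -0.11 without E15 control 1, and by -0.21 (SE 0.20, 95% interval -0.64 to 0.23) in knockouts. Spry4 changed by -0.03 (SE 0.12, 95% interval -0.30 to 0.25) in controls, a value that turned positive with 75th percentile scaling, and by 0.14 (SE 0.11, 95% interval -0.09 to 0.36) in knockouts. Spry4 was read near the floor, at 6.08 to 6.45 in P1 controls and 6.03 to 6.68 in E15 controls, and its second probe was not well above background in any E15 channel.

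The calls were also made without the animals rich in meningeal transcripts. With E15 controls 1 and 2 left out, the changes were -1.63 for Dusp4, -0.63 for Spry2, -0.51 for Dusp6, -0.47 for the brightest Ptpn6 probe and 0.68 for Spred1, with adjusted p between 0.000136 and 0.00757. The uncalled Spry1 changed by -0.07 and Ptpn11 by 0.32 in that fit. The 4 E15 controls left still had 4554.3 to 9738.2 units of the meningeal markers, above every P1 control. With E15 knockout 8 left out, the same 4 members were called in knockouts, at -1.90 for Dusp4, -0.87 for Spry2, -0.58 for the brightest Ptpn6 probe and 0.70 for Spred1. Markers of other cells also differed between the ages in controls, where 37.6% of all features were called. Of 8 neuronal markers, 6 were higher and none was lower at P1, and their summed level was 17669 to 20146 units at P1 against 8592.7 to 14604 at E15. Of 7 astrocyte markers, 5 were higher, with 2474.0 to 4088.0 units at P1 against 1959.0 to 2299.1 at E15. Of 7 erythroid markers, 5 were lower, with 1787.6 to 3450.6 units at P1 against 5190.3 to 13840 at E15. Of 9 progenitor markers, 2 were higher and 3 lower, with 16536 to 26683 units at P1 (median 24394) against 14896 to 17724 at E15 (median 16378). The sum weighs bright markers most: 7 of these 9 markers had a change below 0, and their median change was -0.34. The part of these mixtures in the members' changes was not tested.

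At P1, no member differed detectably between knockout and control brain. Of 24528 features none was called with limma (0% beside 0 of 8 members), while 2285 or 9.32% had an unadjusted p under 0.05. None of the members did on its brightest probe. Spred1 had log2 ratios of knockout over control of 0.49, 0.20, -0.12 and 0.02, a change of 0.15 (SE 0.11, 95% interval -0.13 to 0.42, limma adjusted p = 0.722) that was 0.03 without replicate 1. Spry4 had 0.29, 0.07, -0.21 and 0.38, a change of 0.13 (SE 0.11, 95% interval -0.14 to 0.41) that was 0.05 without replicate 4 and 0.25 without replicate 3. Values on both sides of 0 occurred for each of the 8 genes. Dusp4 had 0.33, -0.29, -0.22 and 0.33, and Dusp6 had 0.36, 0.03, 0.06 and -0.19, with changes of 0.04 (95% interval -0.31 to 0.38) and 0.07 (95% interval -0.18 to 0.31). The remaining members changed by -0.01 (Ptpn11), 0.02 (Spry1), 0.04 (Ptpn6) and 0.05 (Spry2), and the median over the 8 members was 0.04 beside 0.01 over all features. The 95% intervals of all 8 lay between -0.31 and 0.42, and the narrowest was that of Ptpn6, from -0.09 to 0.16. The median log2 ratio of 7 forebrain markers ran from -0.51 to 1.20 over the 4 P1 replicates. The summed level of 8 neuronal markers was 14487 to 17046 units in P1 knockouts and 17669 to 20146 in P1 controls. None of these 8 markers was called at P1, and the sums of the other marker lists overlapped between the groups. The part of these differences in tissue in the members' ratios was not tested.

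Each P1 replicate was measured in both dye orientations, whose mean enters the fit. In P1 replicates the ratio measured with the knockout in Cy5 and with it in Cy3 differed by a median of 0.06 for Ptpn6 and of 0.28 to 0.53 for the 7 other members. Both orientations had the same sign in 0 of 4 replicates for Spry1, in 1 of 4 for Spry2 and Dusp6, and in at most 3 of 4 for any member. The differences had 1 sign in all 4 replicates for Dusp6, Spred1 and Spry2, and a dye effect of that kind cancels in the mean.

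**Figure D3:**
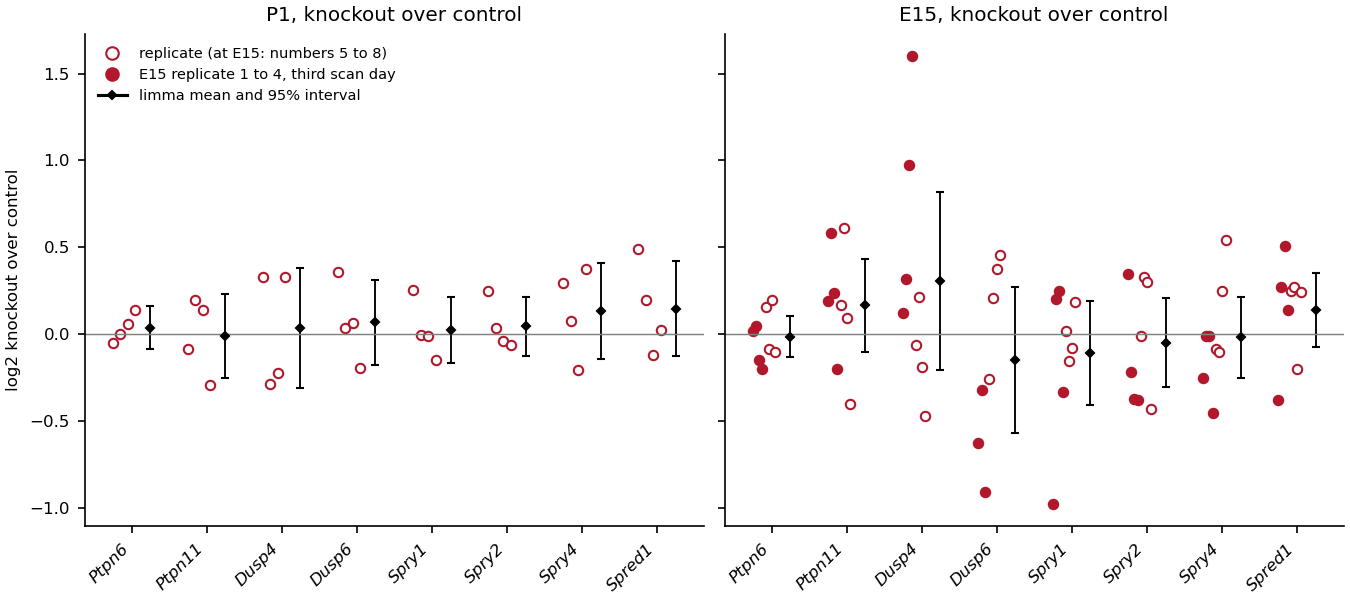
Log2 knockout over control of each replicate for the 8 genes at P1 (left, 4 replicates) and E15 (right, 8 replicates), with limma's mean and 95% interval as black diamonds and bars. Every interval includes 0. Filled points are E15 replicates 1 to 4, scanned on the third day; among them Dusp4 is above 0 and Dusp6 below 0 in every replicate with a value.

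At E15, again no member differed detectably between the groups. None of 24059 features was called with limma (0% beside 0 of 8 members), and 1580 or 6.57% had an unadjusted p under 0.05. Read by its brightest probe, no member was among them, and unadjusted p of the other probes are not given here. Dusp4 ran from -0.47 over a median of 0.17 to 1.60, with 5 of 8 replicates above 0 and a change of 0.31 (SE 0.23, 95% interval -0.21 to 0.82, limma adjusted p = 0.782). The change was 0.12 without replicate 4. Replicate 7 entered with 1 of its 2 arrays for this probe. The dimmer Dusp4 probe was above 0 in 8 of 8 replicates, from 0.04 over a median of 0.15 to 0.63, with a change of 0.24 (SE 0.07, adjusted p = 0.759). Dusp6 ran from -0.91 over a median of -0.26 to 0.45 in 7 replicates, with a change of -0.15 (SE 0.18, 95% interval -0.57 to 0.27, limma adjusted p = 0.855), and -0.03 without replicate 4.

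Dusp4 and Dusp6 are given here by scan day at E15, a split made after their values were seen. In replicates 1 to 4, scanned on the third day, Dusp4 averaged 0.75 (SD 0.67, n = 4) and was above 0 in each, and Dusp6 averaged -0.62 (SD 0.30, n = 3) and was below 0 in each. In replicates 5 to 8 Dusp4 averaged -0.13 (SD 0.29, n = 4) and Dusp6 0.19 (SD 0.32, n = 4). The 2 sets overlapped for Dusp4, at 0.21 in replicate 6 and 0.12 in replicate 1, and Dusp6 was also below 0 in replicate 5, at -0.26. Fitted on either set of days alone, neither gene passed the test: adjusted p was 0.258 and 0.886 for Dusp4, and 0.214 and 0.852 for Dusp6. Replicates 1 to 4 were also the ones with at least 1 array against control 1 or 2, the controls rich in meningeal transcripts. The median log2 ratio of the 10 meningeal markers was -1.40, -0.16, -1.01 and -2.06 in replicates 1 to 4 and 0.10, -0.68, 0.49 and 2.71 in replicates 5 to 8. That of 9 muscle markers was -1.36, -0.67, -0.81 and -3.45, then 0.22, -0.62, 0.10 and 3.44. With the 3 replicates left that involve none of the rich animals, Dusp4 changed by -0.01 and Dusp6 by 0.11. The part of these tissues in the 2 genes' ratios was not tested.

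**Figure D4:**
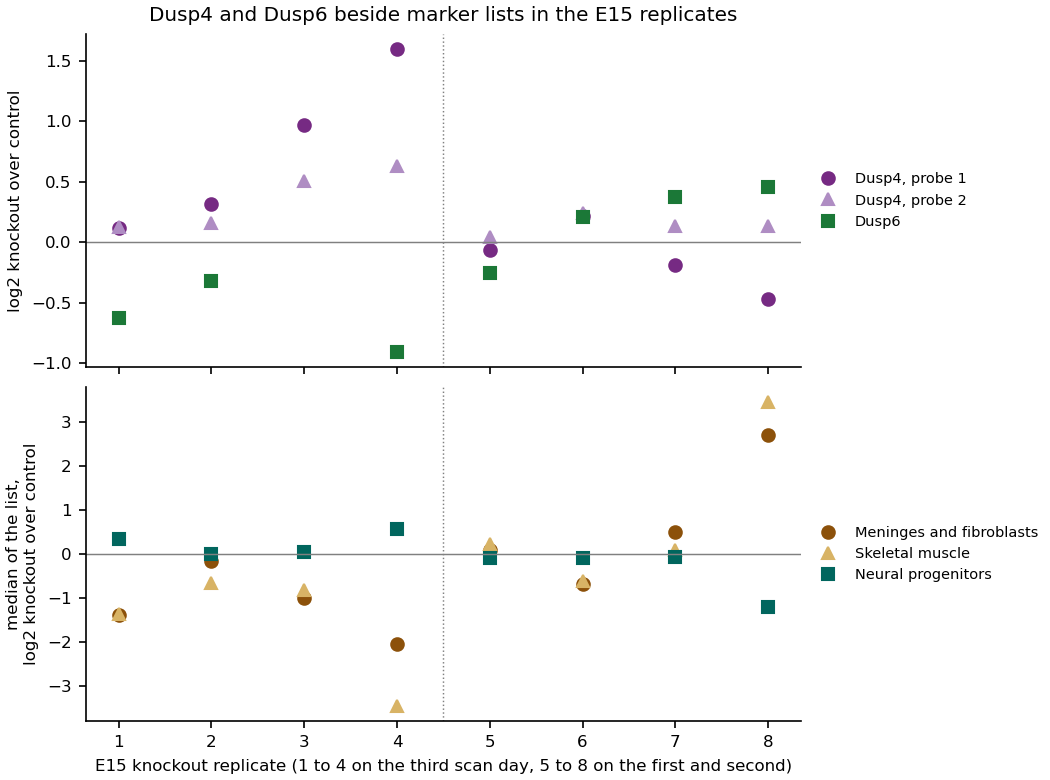
Log2 knockout over control in the 8 E15 replicates for both Dusp4 probes and Dusp6 (top; Dusp6 lacks replicate 3), and the median over the marker genes of meninges and fibroblasts, skeletal muscle and neural progenitors (bottom). The dotted line separates the scan days. Replicates 4 and 8 hold the lowest and highest muscle and meningeal medians, and for Dusp4 probe 1 and Dusp6 they lie at opposite ends of the range.

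The arrays of E15 replicate 1 gave Dusp4 ratios far apart. E15 knockout 1 was hybridized with control 1 in one orientation and control 6 in the other, and the ratios were 1.25 and -1.01, so the dye and the control animal changed together and cannot be told apart. The animals' own levels were 10.07 in knockout 1 and 9.90 in control 1, below every other E15 animal, and 10.46 in control 6. For Spry1 the same knockout gave the lowest ratio, -0.98, and control 1 the highest E15 control level, 9.40.

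None of the other members passed at E15. Ptpn11 changed by 0.16 (SE 0.12, 95% interval -0.10 to 0.43) with 6 of 8 replicates above 0, and its second brightest probe ran from -0.74 to 1.18. On the brightest Ptpn11 probe, replicate 2 averaged ratios of 1.74 against control 2 and -0.58 against control 3. These 2 arrays had opposite dye orientations, so the dye and the control animal cannot be told apart there either. With each replicate left out in turn, the Ptpn11 change ran from 0.10 to 0.25. Spred1 changed by 0.14 (SE 0.09, 95% interval -0.08 to 0.35) with 6 of 8 above 0. Spry1 changed by -0.11, with replicates from -0.98 to 0.25, Spry2 by -0.05, Spry4 by -0.02 and Ptpn6 by -0.01. Ptpn6 had the narrowest interval, -0.13 to 0.11, and its 8 values lay between -0.20 and 0.20. The difference between the ages in the knockout effect (P1 minus E15) was not called for any member, with values from -0.27 for Dusp4 to 0.21 for Dusp6 and adjusted p of 0.93 or more, beside 71 of 23484 features or 0.302% (0.0255% higher, 0.277% lower). On its brightest probe no member had an unadjusted p under 0.05, beside 5.99% of features. None of those 71 features was called when spots marked as outliers were kept.

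Other genes of the pathway were described by lists of known members, whose counts stand beside 37.6% of all features called between the ages in controls (14.8% higher, 22.8% lower; median change -0.08) and 28.2% in knockouts (median change -0.07). Of 16 other MAPK phosphatases measured, 9 were called in controls between the ages (2 higher, 7 lower; median change -0.25), which is 9 of 16 beside that 37.6%. Dusp1, an inducible nuclear phosphatase, fell by 0.70 (change -0.70, SE 0.11, adjusted p = 0.000982), and Dusp9, which acts on ERK in the cytoplasm, changed by -0.79 (SE 0.22, adjusted p = 0.0153), a call lost without P1 control 4. Ppp2cb, a catalytic subunit of protein phosphatase 2A, changed by -0.72 (SE 0.14, adjusted p = 0.00224). Dusp2, another nuclear phosphatase, was higher by 1.42 (SE 0.26, adjusted p = 0.00241), at 8.87 to 10.30 in the 3 P1 controls with a value against 7.83 to 8.44 in the E15 controls. In knockouts 5 of the 16 were called (1 higher, 4 lower).

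Of 15 other inhibitors of receptor tyrosine kinase and Ras signalling, 2 were called in controls, both higher, with a list median of 0.15, a smaller share than the 37.6% of all features. They were Rasa3, a Ras GTPase-activating protein (0.68, SE 0.14, adjusted p = 0.00339; a second probe 3.58), and the adaptor Dok1 (0.43, SE 0.12, adjusted p = 0.0188), whose call was lost with the mean of its probes and without the rich animals. In knockouts 1 of the 15, Dok1, was called. Within the ERK cascade 8 of 23 genes were called in controls (3 higher, 5 lower) and 6 in knockouts (1 higher, 5 lower), shares near those of all features (37.6% and 28.2%). Map2k1, which encodes MEK1, was higher by 0.61 (SE 0.13, adjusted p = 0.00469) and the scaffold Ksr1 by 0.44 (SE 0.12, adjusted p = 0.0208; not called without P1 control 3 or 4), while the kinase Araf was lower, at -0.53 (SE 0.10, adjusted p = 0.0028).

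Receptors and ligands gave 14 calls of 26 in controls (6 higher, 8 lower) and 11 in knockouts (5 higher, 6 lower), beside 37.6% and 28.2% of all features. Fgfr3, a fibroblast growth factor receptor, was higher by 2.42 (SE 0.11, adjusted p = 3.25e-07), with levels of 9.86 to 10.48 in P1 controls against 7.62 to 7.92 in E15 controls; a second probe changed by 0.33 and did not pass. Pdgfrb, a receptor of pericytes and fibroblasts, changed by -1.23 (SE 0.19, adjusted p = 0.000767) and the neuregulin receptor Erbb4 by -1.14 (SE 0.31, adjusted p = 0.0147), although another Erbb4 probe changed by 0.49 (adjusted p = 0.000456). The ligand Fgf8 had a fitted change of 4.09, but 1 of 4 P1 controls gave a value on that probe and its other probe changed by -0.02, so no direction is given.

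Of 14 genes known to respond to ERK, 9 were called in controls (2 higher, 7 lower; median change -0.39) and 5 in knockouts (1 higher, 4 lower), beside 37.6% and 28.2% of all features. Ccnd1, the G1 cyclin, changed by -0.91 (SE 0.12, adjusted p = 0.000315), the immediate early gene Ier2 by -0.88 (SE 0.09, adjusted p = 5.72e-05) and Junb by -1.55 (SE 0.40, adjusted p = 0.0118), with a second Junb probe at -0.35 that did not pass. Etv4, an ETS factor, was higher by 1.72 (SE 0.27, adjusted p = 0.00142), from 2 of 4 P1 controls; it was 1.07 without control 4 and 2.37 without control 3 of P1. Among 7 genes of the receptor itself and its partners, 3 were lower in controls: Mtus1, which encodes a protein binding the type 2 receptor, changed by -0.97 (SE 0.14, adjusted p = 0.000511; its other 3 probes -0.48, -0.06 and 0.11), and the type 1 receptor genes Agtr1a and Agtr1b changed by -0.30 (adjusted p = 0.0151) and -0.24 (adjusted p = 0.0228). With 75th percentile scaling neither passed, at -0.08 (adjusted p = 0.605) and -0.0032 (adjusted p = 0.986), and Agtr1b also missed the threshold without P1 control 3 or 4.

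In the knockout comparisons none of the pathway genes was called at either age. The lowest unadjusted p at P1 belonged to Junb, higher by 0.31 (SE 0.06, 4 of 4 replicates above 0, limma adjusted p = 0.45), and Ppp2cb, at -0.31 (SE 0.07, 0 of 4 above 0, limma adjusted p = 0.45). At E15 it belonged to Igf1r, the insulin-like growth factor receptor, at 0.34 (SE 0.08, 8 of 8 above 0, limma adjusted p = 0.746), with its other probes at 0.08 and 0.07. Igf1r had 0.29 at P1 (SE 0.14, 3 of 4 above 0, limma adjusted p = 0.578), with the other probes at -0.05 and -0.21.

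Across the 22 animals, each group centred on its own mean, the members did not vary as 1 set. The highest Pearson correlation between members was 0.73 for Ptpn6 and Spry2 and the lowest -0.50 for Dusp6 and Spry2 (21 animals). Animals on 1 array share its hybridization, and these values are descriptions. The features most like each member were Kif24 for Ptpn6 (r = 0.93), Cox16 for Ptpn11 (0.91), Unc13b for Dusp4 (0.88), Wdr53 for Dusp6 (0.87), Lancl1 for Spry1 (0.91), Mbnl1 for Spry2 (0.93), Pdgfa for Spry4 (0.84) and Maml1 for Spred1 (0.84), the highest among 17486 features each.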

How the data were processed

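The authors deposited 1 scanner file per array, which per the file headers holds spot and local background intensity of both channels before normalization, and log10 ratios of red over green computed by the authors' scanner software from its processed intensity. Per the labels' protocols, total RNA from frozen slices of whole brain was DNase-treated and labelled by linear amplification. Mean signals were background-corrected by normexp (offset 50), loess-normalized within arrays and turned to log2 knockout over control. Outlier-marked spots were left out. Arrays of a replicate were averaged. E15 replicates 3 and 4, with 1 array each, had the mean dye effect of the other 6 subtracted, or of fewer where a spot was missing. In replicates 1 and 2 the dye swap also changed the control animal, so this mean holds differences between controls too. On the brightest Dusp4 probe it took replicate 3 from 0.82 to 0.97 and replicate 4 from 1.45 to 1.60. For levels, channels were separated after Aquantile normalization and averaged per animal. A gene was read by its brightest probe, and features well above background in at least 50% of channels of an age were kept.

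Tests used limma 3.58.1 (lmFit, eBayes) in R 4.3.3 with Benjamini-Hochberg adjustment, the E15 and difference fits with replicates sharing controls as a random block (correlation 0.0493 at E15, 0.0521 for the difference). Other probes of a gene were fitted with every probe as its own feature. Code was tested on simulated data. All members were named with all probes; of each list and comparison, up to 4 called genes of largest change, or the 2 of lowest p. The values of 1 gene of the ERK cascade list are not reported here. The members and lists were chosen with earlier results of these data known. The number of arrays limits the precision. Alternatives were other signals, ratios, scalings, filters, probe rules, blocks, scan days and left-out animals.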

Additional observations from a re-analysis of the deposited data

Results flagged for a closer look

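Samples that stood apart within their group were looked for in 48 groups of 4 to 8 values, by the gap to the nearest sample relative to the group's range, and chance marks about 1 group in 20. The level of Spred1 was 8.50 in P1 knockout 3, below the other 3 P1 knockouts, the nearest of which had 8.85. The level of Ptpn11 was 9.34 in E15 control 2, below the other 5 E15 controls, the nearest of which had 10.3. E15 control 2 was among the controls rich in meningeal transcripts, and the still richer E15 control 1 and E15 knockout 8 had Ptpn11 levels of 10.323 and 10.335. The part of this tissue in the Ptpn11 level was not tested.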

How the results depend on the processing

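No paired analysis was possible because same-numbered replicates of the 2 ages are different animals, and knockout and control were already compared within each array. A scan-day block was not run at P1, where all arrays share 1 day. Leaving out the animals rich in meningeal transcripts, the split by scan day and the fit of single probes were chosen after seeing the data. Of the members' values under the alternatives, 624 kept direction and side of the threshold, 46 changed sign, 5 lost and 3 gained the call; for the pathway genes, 1230 kept both, 8 changed sign and 103 lost the call. Except where stated, the cause was not tested.

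The P1 knockout comparison gave 0 calls under every alternative run. At E15 there was 1 call with scanner processed signals and 1 with the deposited ratios, and 0 to 1 when each replicate was left out. The difference between ages gave 0 calls with processed signals, deposited ratios, outlier spots kept or the rich animals left out, 124 with no filter on dim probes, and 9 to 132 with a replicate left out. Over all alternatives, calls between ages ran from 7428 to 10010 in controls and from 4953 to 7777 in knockouts.

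Ptpn6 in knockouts missed the threshold under both 75th percentile scalings (-0.37 and -0.54), and under the mean of probes Ptpn6 (-0.0090) and Spred1 (0.20) missed it there. Under that mean Ptpn11 passed in both genotypes (controls 0.60, knockouts 0.38) and Ptpn6 missed in controls (-0.021).

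E15 knockout effects changed sign on days 1 and 2 alone (Ptpn6 0.040, Dusp4 -0.13, Dusp6 0.19, Spry2 0.047, Spry4 0.15, Ube2v2 -0.038), on day 3 alone (Dusp1 0.012), without the rich animals (Ptpn6 0.088, Dusp4 -0.013, Dusp6 0.11, Spry2 0.21, Spry4 0.019, Gab2 0.0062, Mtus1 0.059), with the mean of probes (Ptpn6 0.0076, Spry2 0.021), with the dye effect not subtracted (Ptpn6 0.026), and for Spry4 with processed signals (0.0016) and deposited ratios (0.0012). At P1, Ptpn11 gave 0.028 with processed signals and 0.027 with deposited ratios. The age difference in effect changed sign for Spred1 with the mean of probes (-0.024), for Fgf8 with outlier spots kept (0.11), and without the rich animals for Ptpn6 (-0.053), Dusp4 (0.049), Dusp6 (-0.041), Spry2 (-0.16) and Mtus1 (-0.034). Between ages, Spry4 in controls gave 0.019 (mean of probes), 0.18 and 0.22 (75th percentile, loess and processed signals) and 0.079 (rich animals left out), and Fgf8 with the mean of probes gave -0.0069 in controls and -0.024 in knockouts.

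With each replicate left out in turn, E15 effects ran from -0.043 to 0.014 for Ptpn6, -0.15 to 0.016 for Spry1, -0.12 to 0.0086 for Spry2 and -0.095 to 0.037 for Spry4. P1 effects ran from -0.081 to 0.084 for Ptpn11, -0.062 to 0.14 for Dusp4, -0.031 to 0.15 for Dusp6, -0.054 to 0.080 for Spry1 and -0.023 to 0.081 for Spry2. The age difference ran from -0.11 to 0.094 for Spred1, and Spry4 between ages in controls from -0.087 to 0.053.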
